A study of Mus musculus with 3 samples.

Results

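Epithelial cells of 3 mouse pancreatic tumours were split by whether they carried transcripts of Prom1, and both arms were compared within each tumour. Prom1 encodes prominin-1 (CD133), a cholesterol-binding membrane protein of microvilli and other cell protrusions. It is used as a surface marker to isolate cells with stem cell properties, in pancreatic cancer among other tumours, and in the normal pancreas it lies on the apical face of duct cells. Because a single-cell library samples few transcripts of any gene, a cell without a Prom1 transcript in its library can still express the gene.

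The tumours were labelled KPf/fC, a mouse strain that develops pancreatic cancer and carries floxed Trp53, deleted by a Cre active in pancreatic cells. All 3 tumours belong to this 1 group, without treatment, and the labels give neither age nor whether each tumour came from its own animal. Cells negative for CD45 (leukocytes), CD31 (endothelium) and PDGFRa (many fibroblasts) had been sorted and read with 10x 3' chemistry, which counts transcripts as unique molecular identifiers (UMIs). The sort removes cells by surface protein and does not select epithelium.

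A cell was taken as epithelial when it had at least 500 genes, at most 20% mitochondrial UMIs, at least 1 UMI each of the epithelial genes Epcam and Krt18, at most 2 UMIs of the fibroblast genes Dcn and Col3a1 together, and at least 3000 UMIs. Of 19576 barcodes, 8235 met these limits: 2414 of 5874 in tumour 1, 2104 of 6087 in tumour 2 and 3717 of 7615 in tumour 3. Each cell was then thinned at random to 3000 UMIs, so that detection did not follow sequencing depth. Cells with at least 1 thinned Prom1 UMI formed the detected arm, with 4023 cells (1283, 928 and 1812 in tumours 1, 2 and 3), and cells with 0 formed the undetected arm, with 4212 (1131, 1176 and 1905). The label of the cells held: Krt8, an epithelial keratin that the limits did not use, was present in 91.1% to 95.1% of the cells of either arm, and Ptprc, which encodes CD45, in 0.39% of either arm at most in any tumour.

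Prom1 transcripts were found in 53.1%, 44.1% and 48.7% of the thinned epithelial cells of tumours 1, 2 and 3 (mean 48.7% ± 4.52, SD, n = 3). With all UMIs of each cell the shares were 77.5%, 65.9% and 70.9%. Fibroblast-like cells were chosen as a cell type that should lack Prom1. They had at least 3 UMIs of Dcn and Col3a1 together, no Epcam or Krt18 UMI, and met the same limits on quality and depth. Cells with both fibroblast and epithelial transcripts were thus left out of them. They gave a background of 2.96%, 2.04% and 1.84% after the same thinning (911, 882 and 1252 cells, median unthinned depth 6135, 6803 and 4925 UMIs). Detection in epithelial cells was therefore far above that in fibroblast-like cells of the same libraries. The source of the Prom1 UMIs in fibroblast-like cells was not tested. Most detected cells carried few copies: 25.3%, 22.7% and 25.1% of epithelial cells had exactly 1 thinned Prom1 UMI, and 7.87%, 4.23% and 4.09% had 4 or more. The highest number in any cell was 15, 11 and 13.

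**Figure D1:**
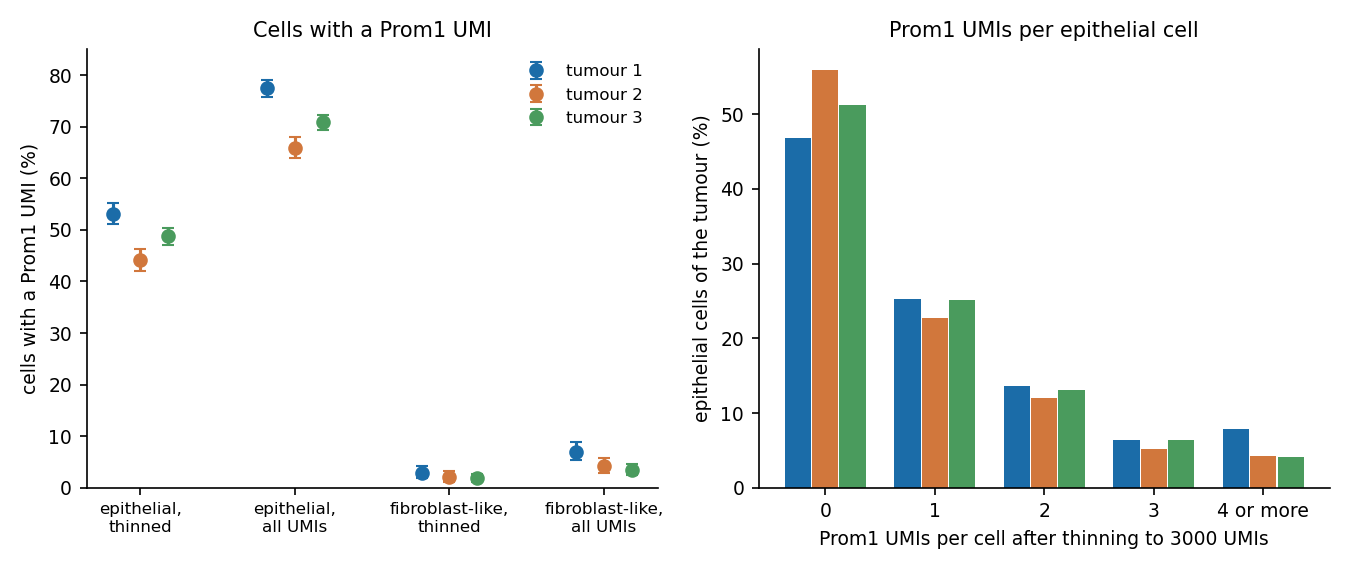
Left: share of cells with a Prom1 UMI, in percent, in epithelial and fibroblast-like cells of each tumour, after thinning to 3000 UMIs and with all UMIs; points are single tumours and bars are exact 95% binomial intervals, which cover counting error only. Right: share of epithelial cells by number of thinned Prom1 UMIs. Epithelial shares lie between 44.1% and 77.5% and fibroblast-like shares at or below 7.03%, and 22.7% to 25.3% of epithelial cells had a single UMI.

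The split used only the thinned UMIs, so the UMIs that thinning set aside give a second reading of Prom1 in the same cells. In them Prom1 stood at 482, 402 and 389 CPM (counts scaled to a common total) in the detected arm and at 154, 115 and 142 CPM in the undetected arm of tumours 1, 2 and 3. The undetected arm thus held Prom1 transcripts as well, and 51.9%, 39.0% and 43.2% of its cells showed at least 1 among their remaining UMIs. Prom1 in the remaining UMIs went up with each step of the thinned number, in tumour 1 from 154 CPM in cells with 0 to 308, 523, 636 and 988 CPM in cells with 1, 2, 3 and 4 or more. The arms are therefore cells with more and with less Prom1, and not cells with and without it. Prom1 itself chose the arms and was not tested.

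The arms differed in other respects that were measured alongside. Detected cells had fewer UMIs before thinning, with medians of 8703, 8008 and 6851 against 10321, 9243 and 8132, and slightly fewer genes after it (1267, 1256 and 1312 against 1312, 1297 and 1342). Their mitochondrial share was higher (median 4.73%, 4.73% and 5.63% against 3.73%, 3.53% and 4.93%), and so was their ribosomal share (23.5%, 24.8% and 22.8% against 21.4%, 22.9% and 21.5%). Cells carrying genes of acinar, endocrine, endothelial or macrophage lineage were less frequent in the detected arm, at 2.65%, 1.08% and 1.27% against 6.99%, 2.21% and 3.47%. The part of these differences in the gene results was not tested unless a value is given below.

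The question was which genes go with Prom1 in tumour epithelium. Counts of the thinned cells were summed per arm and tumour, and the 6 sums were fitted with edgeR's quasi-likelihood test with the tumour as a block. Of 11506 genes tested, 1996 passed a Benjamini-Hochberg adjusted p of 0.05, which is 17.3%. Of these, 929 were higher in detected cells (8.07% of tested genes) and 1067 lower (9.27%). The levels of the arms did not overlap across tumours for 1321 genes (11.5%). DESeq2, with the same block, called 721 of the 11506 genes, 310 higher and 411 lower. Without tumour 1 edgeR called 1138, and without tumour 2 it called 1274. The genes highest in detected cells included secreted products of mucous and gastric glands and of epithelial defence, and surface proteins such as Ly6d and Pigr. Ltf, Muc6, Dmbt1, Wfdc18, 2210407C18Rik, Muc3, Tff2, Pgc, Gkn3, Ly6d, Ces2g and Pigr had the 12 largest differences among those that met the abundance limit, between 1.66 and 2.14 on the log2 scale. Of these, Muc3, a membrane mucin of the gut, did not pass with DESeq2 (adjusted p = 0.13) or with no Dcn or Col3a1 UMI allowed (edgeR adjusted p = 0.0601), and differed by 1.13 without tumour 2 and 2.61 without tumour 3. The 12 lowest were Ppy, Zg16, Klra4, Spink1, Vim, Reg3a, Rnase1, Inhba, Try5, 2210010C04Rik, Cela3b and Tnc, between -1.89 and -3.35. They included acinar and islet products and mesenchymal and matrix genes, but not all 12 belong to these classes, such as Klra4 (-2.55).

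**Figure D2:**
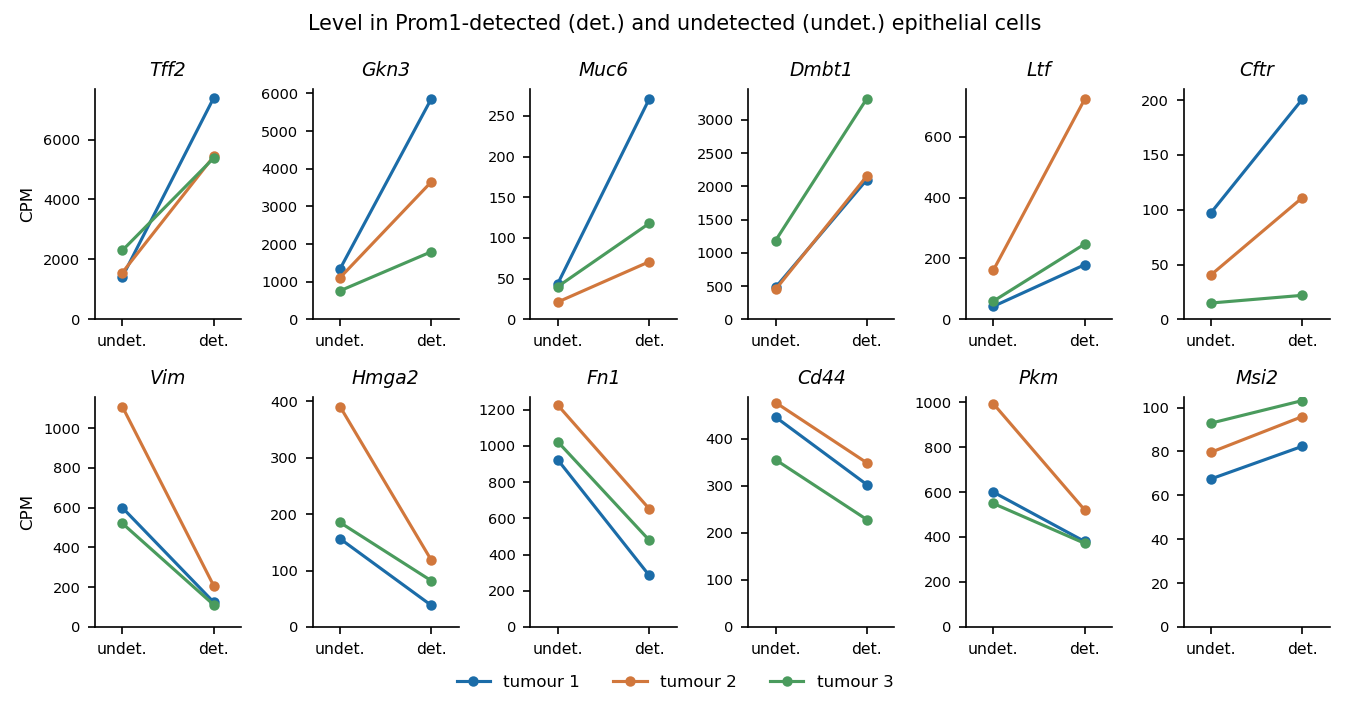
Level of 12 genes in CPM of the summed thinned UMIs of each arm, with a line joining both arms of a tumour. Tff2, Gkn3, Muc6, Dmbt1, Ltf and Cftr are higher and Vim, Hmga2, Fn1, Cd44 and Pkm lower in the detected arm of each tumour, while Msi2 differs by little.

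Mucous and gastric genes formed the clearest group on the high side. Tff2, a trefoil peptide that gastric neck cells secrete with mucus, stood at 7387, 5436 and 5380 CPM in the detected arm and at 1416, 1558 and 2298 CPM in the undetected arm of tumours 1, 2 and 3. Every detected arm was above every undetected arm, a difference of 1.84 ± 0.15 (log2 fold change and SE, edgeR adjusted p = 1.1e-05). Gkn3, a gastrokine of the stomach lining, was at 5862, 3653 and 1796 CPM against 1340, 1106 and 758 CPM (1.73 ± 0.11, edgeR adjusted p = 3.01e-06). Its level varied 3-fold between the detected arms, and yet no arm overlapped with the other group. Muc6, the mucin of deep gastric glands, was at 271, 70.8 and 118 CPM against 43.9, 21.3 and 40.2 CPM (2.03 ± 0.16, edgeR adjusted p = 1.39e-05). Pgc, the precursor of the gastric protease pepsinogen C, was low throughout, at 50.7, 9.34 and 78.2 CPM against 7.66, 1.98 and 31.1 CPM, and the detected arm of tumour 2 was below the undetected arm of tumour 3 (1.82 ± 0.21, edgeR adjusted p = 0.000163; 2.62 without tumour 3). The 5967 cells with at least 6000 UMIs were also thinned to 6000 and split anew by Prom1, so that both cells and arms changed. The differences there were larger, 2.65 for Tff2, 2.45 for Pgc, 2.46 for Agr2 and 2.91 for Ltf, and passed edgeR.

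Of 25 tested genes on a list of gastric and classical tumour genes, 14 were higher and 1, S100a6, was lower, with a median of 0.51 where all tested genes had 0.01. Among all tested genes 8.07% were higher and 9.27% lower. Agr2, which folds secreted mucins in the endoplasmic reticulum, differed by 1.64 ± 0.16 (edgeR adjusted p = 4.11e-05), and 43.3%, 44.1% and 21.1% of detected cells carried it against 18.1%, 20.7% and 11.1% of undetected cells. Lgals4, a galectin of the gut epithelium, was at 1110, 974 and 825 CPM against 500, 426 and 467 CPM (1.09 ± 0.07, edgeR adjusted p = 3.01e-06). Of 6 tested genes of gland mucous cells, 3 were higher and 0 lower. The third beside Muc6 and Pgc was Aqp5, a water channel of secretory glands, with 0.99 ± 0.12 (edgeR adjusted p = 0.000161).

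Genes of epithelial defence went with Prom1 in a similar way. Of 16 tested members, 12 were higher and 2 lower (median 1.18), beside 8.07% higher and 9.27% lower among all tested genes. Ltf encodes lactoferrin, an iron-binding protein of secretions, and was at 179, 723 and 247 CPM in detected against 42.4, 161 and 59.5 CPM in undetected cells (2.14 ± 0.07, edgeR adjusted p = 1e-08). Although tumour 2 had the highest level in both arms, each detected arm lay above all undetected arms. Dmbt1, a scavenger receptor-like protein that mucosae secrete to bind bacteria, was at 2102, 2157 and 3322 CPM against 480, 449 and 1184 CPM (1.99 ± 0.11, edgeR adjusted p = 7.21e-07). Pglyrp1, a peptidoglycan recognition protein, was at 823, 1232 and 951 CPM against 323, 531 and 511 CPM (1.18 ± 0.08, edgeR adjusted p = 2.58e-06).

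Wfdc18, a small secreted protein of the whey acidic protein family, was higher as well but overlapped between tumours (904, 386 and 253 CPM against 321, 79.6 and 66.0 CPM). Pigr, the receptor that carries immunoglobulins across epithelium, was at 270, 198 and 90.9 CPM against 114, 23.5 and 46.4 CPM (1.66 ± 0.26, edgeR adjusted p = 0.00108), but DESeq2 gave it an adjusted p of 0.053. The 2 lower members were Lyz2, a lysozyme of myeloid cells that was at or under 1.04 CPM in all detected arms, and Reg3a, a lectin that acinar cells also make, and neither passed with DESeq2 (adjusted p = 0.33 and 0.11). Il18, an epithelial cytokine of the inflammasome pathway, was at 71.2, 81.2 and 44.7 CPM against 27.7, 30.3 and 20.6 CPM (1.33 ± 0.11, edgeR adjusted p = 1.45e-05). It is on a list of inflammatory duct genes of which 4 of 24 were higher and 7 lower. The shares among all tested genes were 8.07% and 9.27%.

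Of 23 tested duct genes, 12 were higher in detected cells and 2 lower, with a median of 0.39. The shares among all tested genes were 8.07% and 9.27%. DESeq2 called 7 of the duct genes higher, and 310 of all 11506 genes. Cftr, the chloride channel through which duct cells drive fluid secretion, was at 201, 111 and 21.9 CPM against 97.3, 40.5 and 14.9 CPM (1.10 ± 0.13, edgeR adjusted p = 0.000166). Tumour 3 made little Cftr in either arm, so that levels overlapped between tumours although the direction was the same in each. Kcne3, a potassium channel subunit that supports such secretion, was at 268, 196 and 37.0 CPM against 123, 82.8 and 16.3 CPM (1.21 ± 0.08, edgeR adjusted p = 4.47e-06). Car2, a carbonic anhydrase that supplies bicarbonate, differed by 0.91 ± 0.09, and the bicarbonate transporter Slc4a4 by 0.74 ± 0.08 (edgeR adjusted p = 4.76e-05 and 0.000144). Sox9, the best known duct and progenitor factor, was at 257, 194 and 201 CPM against 218, 199 and 184 CPM, and its difference of 0.15 ± 0.08 did not pass (edgeR adjusted p = 0.224).

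Among genes of the apical membrane, where prominin-1 itself lies, 10 of 24 tested members were higher and 2 lower (median 0.38). The shares among all tested genes were 8.07% and 9.27%. DESeq2 called 6 members higher, and 310 of all 11506 genes. Without cells with a Vim UMI 5 of 23 members were higher, and 511 of all 10773 genes. Muc1, a transmembrane mucin of the apical surface, was at 457, 401 and 386 CPM against 284, 196 and 304 CPM without overlap (0.71 ± 0.10, edgeR adjusted p = 0.0006). Rab25, a small GTPase of apical recycling endosomes, differed by 0.74 ± 0.08 and Mal2, a protein of apical transport, by 0.75 ± 0.11 (edgeR adjusted p = 6.74e-05 and 0.00084). The member on the low side with the smallest p was Msn, which encodes moesin, a linker between membrane and actin, at 83.1, 145 and 94.4 CPM against 255, 360 and 214 CPM (-1.33 ± 0.09, edgeR adjusted p = 3.95e-06). Prom2, the other prominin gene, was too low to be tested.

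Genes of stem and progenitor cells were called on both sides. Of 27 tested members, 7 were higher and 4 lower, with a median of 0.16 beside the 0.01 of all tested genes, of which 8.07% were higher and 9.27% lower. DESeq2 called 3 higher and 4 lower. Msi2, the RNA-binding protein used as another marker of stem-like tumour cells, was at 82.4, 95.9 and 103 CPM against 67.5, 79.6 and 92.9 CPM. The difference had the same sign in all 3 tumours and was small (0.26 ± 0.08, edgeR adjusted p = 0.0484), and it did not pass with DESeq2 (adjusted p = 0.45) or without any single tumour (edgeR adjusted p = 0.0586 to 0.229). Msi2 was present in 21.3%, 24.4% and 26.2% of detected and in 18.4%, 21.1% and 23.1% of undetected cells. Cd24a, a surface glycoprotein used with CD133 to sort tumour cells, was at 640, 660 and 910 CPM against 532, 477 and 795 CPM (0.34 ± 0.06, edgeR adjusted p = 0.00355), a call that was lost when cells with a Vim UMI were left out (0.15, adjusted p = 0.0838).

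Cd44, the hyaluronan receptor used for the same purpose, went the other way. It was at 302, 348 and 228 CPM in detected and at 446, 476 and 355 CPM in undetected cells, without overlap (-0.52 ± 0.07, edgeR adjusted p = 0.00027). Hmga2, a chromatin protein of embryonic and invasive tumour cells, was at 38.2, 118 and 81.9 CPM against 156, 391 and 185 CPM (-1.58 ± 0.13, edgeR adjusted p = 1.45e-05). Procr, the protein C receptor, was lower as well (-1.78 ± 0.19), and so was Nes, an intermediate filament protein of progenitor cells (-1.13 ± 0.14, edgeR adjusted p = 9.17e-05 and 0.0002). Common surface markers of pancreatic tumour stem cells thus differed in direction, with Cd24a on the side of Prom1 and Cd44 opposite to it.

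Of 21 tested nuclear receptors, 9 were higher and 2 lower (median 0.44), beside 8.07% and 9.27% of all tested genes. DESeq2 called 0 of them in either direction, and 310 higher and 411 lower among all 11506 genes. With all cells that carried a Vim UMI left out, 1 of 20 receptors was higher and 0 lower. Among all 10773 genes of that fit, 511 were higher and 529 lower. Nr4a1, a receptor induced within minutes of a stimulus, was at 97.2, 43.1 and 57.8 CPM in detected and at 64.0, 33.2 and 43.9 CPM in undetected cells. It was higher in the detected arm of each tumour, but the arms overlapped across tumours (0.50 ± 0.10, edgeR adjusted p = 0.00443). It did not pass with DESeq2 (adjusted p = 0.079) or without tumour 1 (0.42, edgeR adjusted p = 0.0838).

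**Figure D3:**
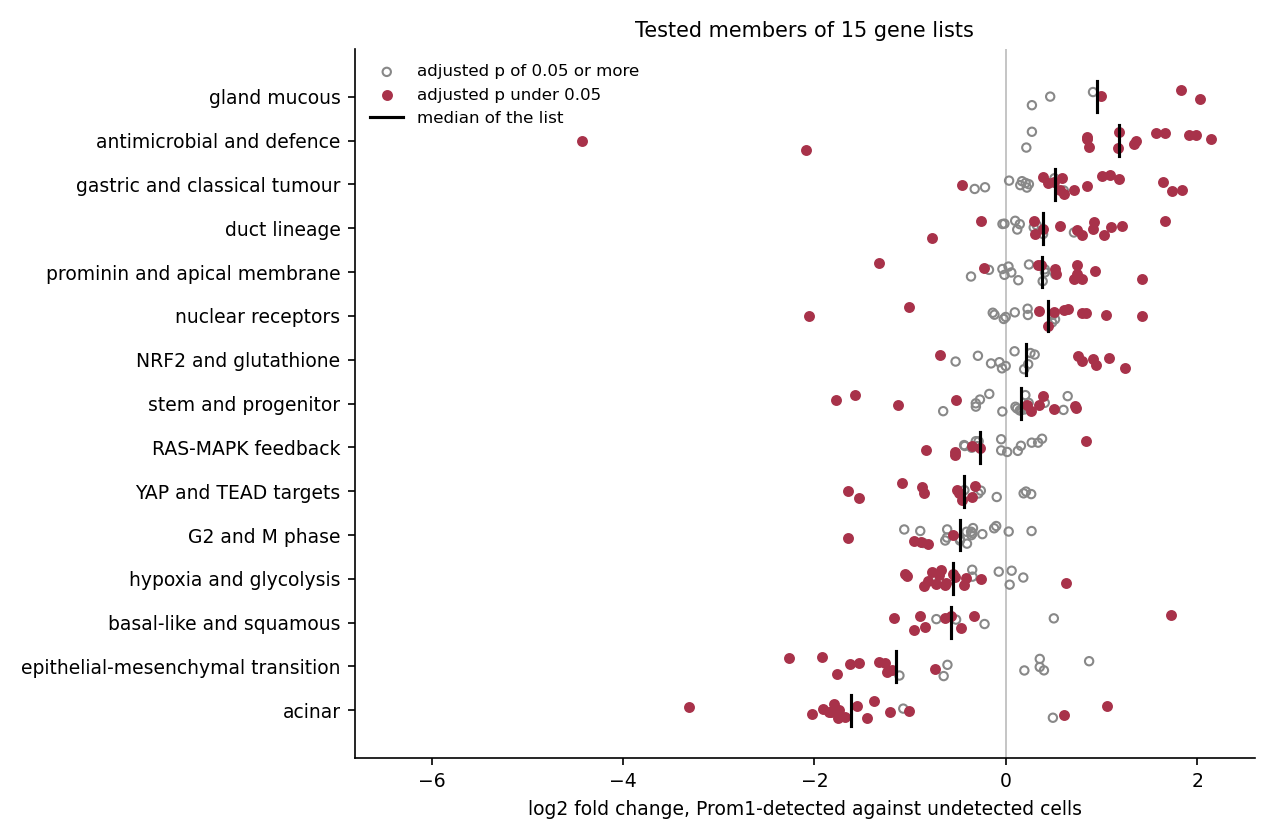
Log2 fold change of each tested member of 15 gene lists between Prom1-detected and undetected cells; filled points passed edgeR's adjusted p of 0.05, open points did not, and the black bar is the list's median. Medians run from 1.18 for defence genes and 0.95 for gland mucous genes to -1.15 for genes of epithelial-mesenchymal transition and -1.62 for acinar genes.

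Mesenchymal genes were lower in Prom1-detected cells. Of 18 tested genes on a list of epithelial-mesenchymal transition, 10 were lower and 0 higher, with a median of -1.15. The shares among all tested genes were 9.27% lower and 8.07% higher. Vim, the mesenchymal intermediate filament protein vimentin, was at 125, 208 and 111 CPM against 600, 1108 and 521 CPM, the smallest adjusted p of all genes named here (-2.27 ± 0.07, edgeR adjusted p = 6.34e-09). Cells with a Vim UMI made up 17.5%, 25.8% and 12.5% of the detected and 40.0%, 53.4% and 34.0% of the undetected arm. Fn1, the matrix protein fibronectin, was at 285, 653 and 480 CPM against 923, 1225 and 1023 CPM (-1.19 ± 0.11, edgeR adjusted p = 4.37e-05). Axl, a receptor kinase of mesenchymal tumour cells, and Cdh2, N-cadherin, were under 51 CPM in all arms and lower in the detected arm of each tumour (-1.54 ± 0.16 and -1.92 ± 0.20, edgeR adjusted p = 7.05e-05 and 7.57e-05).

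Markers of stromal cells were measured beside these genes. The summed level of 12 fibroblast markers was 122 to 168 CPM in detected and 143 to 194 CPM in undetected arms, each of the 12 was present in both, and 0 of 9 tested were called. That count cannot show the part of fibroblasts, because the limit on Dcn and Col3a1 had already left out cells with more of their transcripts. Mean Dcn and Col3a1 UMIs per unthinned cell were 0.75, 0.48 and 0.44 in detected and 0.83, 0.60 and 0.52 in undetected arms. The summed level of 10 endothelial markers was 53.5, 32.0 and 11.0 CPM in the detected against 133, 63.2 and 39.6 CPM in the undetected arms of tumours 1, 2 and 3. Of 7 tested, 5 were lower, beside 9.27% of all tested genes. With cells of other lineages left out, 1 of 4 tested was lower, but these same markers chose the cells to leave out. The summed level of 12 pericyte and smooth muscle markers was 177, 59.6 and 50.6 CPM against 238, 107 and 64.9 CPM, and 1 of 6 tested was lower. The part of these cells in the lower mesenchymal genes was not tested. When all cells with a Vim UMI were left out of both arms, 1040 of the tested genes passed, and of the list 2 of 16 members were lower with a median of -0.14. Without those cells Hmga2 still differed by -1.25, Fn1 by -1.06, Tff2 by 1.40, Dmbt1 by 1.62 and Ltf by 1.72, all with an adjusted p under 0.05 in edgeR, whereas Axl no longer passed (-0.46, adjusted p = 0.35).

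Basal-like and squamous genes were lower as well, with 8 of 13 tested members lower (4 with DESeq2), 1 higher and a median of -0.57. Among all tested genes edgeR called 9.27% lower and 8.07% higher, and DESeq2 called 411 of 11506 lower. Areg, which encodes the EGF receptor ligand amphiregulin, was at 49.6, 80.1 and 34.4 CPM against 102, 161 and 50.6 CPM (-0.84 ± 0.11, edgeR adjusted p = 0.000291). Plaur, the urokinase receptor, was at 75.3, 103 and 76.3 CPM against 141, 198 and 165 CPM (-0.96 ± 0.08, edgeR adjusted p = 1.6e-05). Ly6d, a small surface protein of stratified epithelia, was the member that went the other way, at 818, 1192 and 180 CPM against 276, 319 and 60.4 CPM (1.72 ± 0.08, edgeR adjusted p = 1.19e-07).

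Genes of glycolysis and the response to low oxygen were lower in detected cells, in 15 of 23 tested members, with 1 higher and a median of -0.55. Among all tested genes 9.27% were lower and 8.07% higher. DESeq2 called 10 members lower, and 411 of all 11506 genes. Without cells with a Vim UMI edgeR called 7 members lower, and 529 of all 10773 genes. Pkm, which encodes the last enzyme of glycolysis, was at 380, 520 and 372 CPM against 600, 993 and 549 CPM (-0.68 ± 0.07, edgeR adjusted p = 9.81e-05). Eno1, another glycolytic enzyme, was at 201, 222 and 139 CPM against 326, 334 and 224 CPM (-0.63 ± 0.07, edgeR adjusted p = 0.000101). Of 17 targets and members of the YAP and TEAD pathway, 10 were lower and 0 higher (median -0.43), and DESeq2 called 3 lower. Ankrd1, a classical target, was at 33.5, 43.8 and 1.10 CPM against 127, 103 and 8.57 CPM (-1.65 ± 0.17, edgeR adjusted p = 8.09e-05).

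Of 20 tested genes of RAS-MAPK signalling and its feedback, 5 were lower (2 with DESeq2) and 1, the receptor gene Erbb3, was higher. Among all tested genes 9.27% were lower and 8.07% higher. Ccnd1, a cyclin of G1 phase, was at 195, 221 and 95.7 CPM against 327, 381 and 202 CPM (-0.83 ± 0.08, edgeR adjusted p = 3.88e-05). Cdkn2a, the locus of the cell cycle inhibitors p16 and p19, was at 298, 605 and 487 CPM against 443, 1049 and 767 CPM (-0.64 ± 0.06, edgeR adjusted p = 4.87e-05).

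Some proliferation genes were lower in detected cells. Of 24 genes of G2 and M phase, 5 were lower and 0 higher (median -0.48), and of 20 S phase genes 3 were lower and 0 higher. Among all tested genes 9.27% were lower and 8.07% higher. DESeq2 called 1 of each list, lower. Mki67, the usual proliferation marker, was at 11.7, 8.98 and 2.58 CPM against 18.6, 8.5 and 4.02 CPM, and did not pass (-0.41 ± 0.23, edgeR adjusted p = 0.269). Top2a, the topoisomerase of dividing cells, was at 14.8, 17.2 and 3.50 CPM against 16.2, 25.2 and 5.25 CPM (-0.36 ± 0.18, edgeR adjusted p = 0.199). Cells with a UMI of either gene made up 4.36%, 4.53% and 1.27% of detected and 5.48%, 6.29% and 2.05% of undetected cells.

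The largest negative differences belonged in part to other lineages and came from few cells. Of 18 tested acinar genes, 14 were lower in detected cells and 2 higher, with a median of -1.62. The shares among all tested genes were 9.27% and 8.07%. Ctrb1, a digestive protease precursor of acinar cells, was at 1137, 239 and 1190 CPM against 3552, 681 and 3583 CPM (-1.55 ± 0.05, edgeR adjusted p = 7.13e-09). Its transcripts nevertheless reached about equal shares of cells, 25.2%, 2.26% and 15.8% of the detected and 26.7%, 3.23% and 16.7% of the undetected arm. Cells with at least 30 UMIs over 9 acinar enzymes after thinning made up 1.64%, 0.22% and 1.16% of the detected arm and 4.16%, 0.43% and 2.57% of the undetected arm. With these cells and those carrying endocrine, endothelial or macrophage genes left out, Ctrb1 differed by 0.32, Prss2 by 0.28 in place of -1.83, and the median of the acinar list was 0.32, which that choice of cells affects directly. In cells thinned to 6000 UMIs neither gene passed (Ctrb1 -0.06, Prss2 -0.41), and with another random thinning Ctrb1 did not pass either (-1.10, edgeR adjusted p = 0.17).

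The same exclusion changed other extreme genes: Zg16 went from -3.31 to -5.44, Ppy, an islet hormone, went from -3.35 (-6.17 without tumour 1) to -0.31, Rnase1 from -2.09 to 0.34, Reg3a from -2.09 to 0.13 and 2210010C04Rik from -2.02 to 0.51. Ppy is among the endocrine genes that chose the cells to leave out, so that choice affects its value directly. Spink1, a trypsin inhibitor, kept its difference (-2.47 and -2.70) but not in cells thinned to 6000 UMIs (-1.11, edgeR adjusted p = 0.219). Differences that hardly moved were those of Vim (-2.27 and -2.26), Hmga2 (-1.58 and -1.60), Tff2 (1.84 and 1.83) and Muc6 (2.03 and 2.02). After it 2023 genes passed, and 1892 of the 1996 genes called with all cells were called again in the same direction. Tnc, the matrix protein tenascin C, at 16.4, 28.0 and 15.1 CPM against 103, 66.6 and 54.4 CPM, changed little (-1.89 and -1.93).

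A finer split asked whether the differences continued within the detected arm. Cells with 2 or more thinned Prom1 UMIs (672, 451 and 879 cells) were compared with cells that had exactly 1 (611, 477 and 933). Of 10103 genes tested with edgeR in the same design, 478 passed (4.73%), of which 238 were higher (2.36%) and 240 lower (2.38%). The groups did not overlap for 723 genes (7.16%), and DESeq2 called 94. The highest were Muc6, 2310057J18Rik, Spink4, Wfdc18, Tff2 and Ern2. Of these, 2310057J18Rik was at 44.1, 17.7 and 85.7 CPM in cells with 2 or more against 3.27, 12.6 and 35.01 CPM in cells with 1, and did not pass with DESeq2 (adjusted p = 0.44). Muc6 was at 413, 99.8 and 179 CPM in cells with 2 or more against 115, 43.3 and 60.7 CPM in cells with 1 (1.67 ± 0.11, edgeR adjusted p = 7.8e-09). Tff2 was at 10793, 7680 and 6614 CPM against 3642, 3314 and 4218 CPM without overlap (1.19 ± 0.10, edgeR adjusted p = 3.99e-07). Spink4, a secreted peptide of goblet cells, was at 246, 106 and 37.2 CPM against 74.2, 49.6 and 16.4 CPM (1.49 ± 0.13, edgeR adjusted p = 5.68e-07).

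Vim and Hmga2 were lower again in the cells with more Prom1, but few members of the mesenchymal list were. Vim was at 81.8, 107 and 52.3 CPM in cells with 2 or more against 172, 303 and 167 CPM in cells with 1 (-1.36 ± 0.11, edgeR adjusted p = 1.06e-07), and Hmga2 at 20.3, 87.2 and 49.7 CPM against 57.8, 147 and 112 CPM (-1.03 ± 0.12, edgeR adjusted p = 3.44e-05). Gene groups kept to fewer calls than in the first comparison: 9 of 16 defence genes were higher and 1 lower, 10 of 25 gastric and classical genes were higher and 1 lower, and 2 of 16 mesenchymal genes were lower and 0 higher. The mesenchymal list had a median of -0.16, against -1.15 in the first comparison. DESeq2 called 5 defence and 5 gastric and classical genes higher. Of the stem and progenitor genes, 0 of 24 were higher and 2 lower, beside 2.36% higher and 2.38% lower among all tested genes. Msi2 did not pass (0.13 ± 0.10, edgeR adjusted p = 0.519), nor did Cd44 (-0.20 ± 0.11, edgeR adjusted p = 0.36). The 6 lowest genes, Cpa1, Ctrb1, Try5, Pnliprp1, Prss2 and Clps, were all acinar products. Without cells of other lineages Ctrb1 went from -3.05 to -0.03 and Prss2 from -2.38 to -0.01, while Muc6 stayed at 1.69 and Vim at -1.40. Ctrb1 and Prss2 are among the enzymes that chose the cells to leave out, which affects their values directly.

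Levels by the number of thinned Prom1 UMIs followed that number at each step for some genes and not for others. Dmbt1 went from 480 CPM in tumour 1 cells with 0 to 1186, 2398, 3203 and 3644 CPM in cells with 1, 2, 3 and 4 or more, and rose at each step in all 3 tumours. Hmga2 went down at each step in all 3 tumours, in tumour 1 from 156 CPM to 57.8, 29.5, 21.6 and 3.51 CPM. Krt8 did so too, in tumour 3 from 1572 CPM to 956 CPM. In tumour 1, Tff2, Gkn3 and Agr2 were lower with 3 UMIs than with 2 (9948, 7067 and 1340 CPM against 10060, 7412 and 1532 CPM). Spink4 in tumour 3 was at 58.4 CPM in cells with 0 and at 16.4 and 14.4 CPM in cells with 1 and 2. Krt19, another epithelial keratin, had no such order: in tumour 3 it was at 1209 CPM in cells with 0 and 1013 CPM in cells with 4 or more, in tumour 1 at 1522 and 1796 CPM. Cd44 was lower with 1 UMI than with 0 in each tumour, but in all 3 tumours it was higher again in cells with 4 or more than in cells with 3 (379, 333 and 184 against 271, 263 and 172 CPM in tumours 1, 2 and 3).

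**Figure D4:**
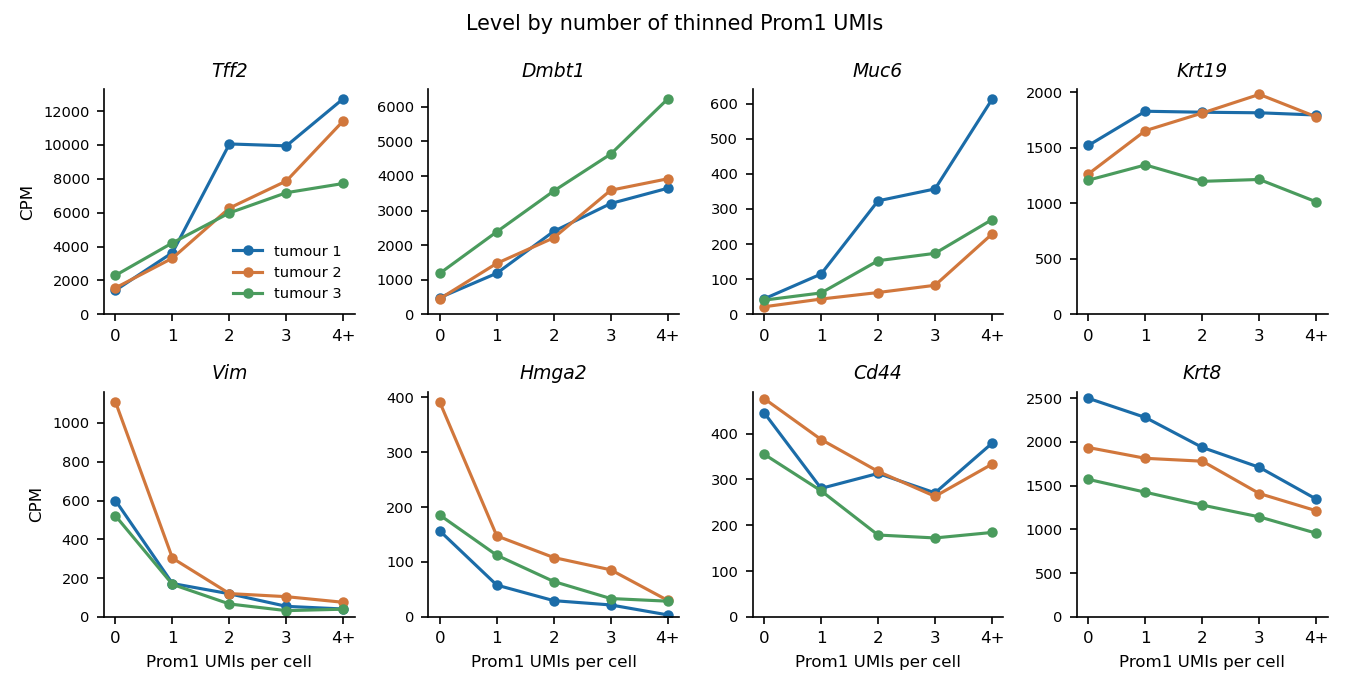
Level of 8 genes in CPM in epithelial cells grouped by their number of Prom1 UMIs after thinning (0, 1, 2, 3, 4 or more), with 1 line per tumour. Dmbt1 goes up and Hmga2 and Krt8 go down at each step in all 3 tumours, while Krt19 follows no common order.

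Prom1 and Msi2 have both been used to mark stem-like cells of this tumour, so cells with only Prom1 were compared with cells with only Msi2. There were 3050 cells with Prom1 and no Msi2 UMI after thinning (1010, 702 and 1338) and 896 with Msi2 and no Prom1 (208, 248 and 440). These cells are a part of those compared above, so the results are not independent of the first comparison. Of 9967 genes tested with edgeR, 714 passed (7.16%), of which 370 were higher in cells with only Prom1 (3.71%) and 344 higher in cells with only Msi2 (3.45%). The groups did not overlap for 1020 genes (10.2%). DESeq2 called 200, and edgeR called 364, 312 and 291 without tumours 1, 2 and 3. The highest with Prom1 were Lypd8, Spink4, Muc3, Pgc, Muc6 and Gkn3, and the lowest were Ank, Vim, Pthlh, Inhba, Hmga2 and Axl.

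Gkn3 was at 6044, 3848 and 1967 CPM in Prom1-only against 1008, 651 and 718 CPM in Msi2-only cells (2.27 ± 0.15, edgeR adjusted p = 4.03e-07). Spink4 was at 178, 87.8 and 29.9 CPM against 8.01, 10.8 and 12.1 CPM (2.92 ± 0.33, edgeR adjusted p = 4.29e-05), also without overlap, and differed by 2.17 without tumour 1 and 3.81 without tumour 3. Lypd8, a surface protein that keeps flagellated bacteria from the gut epithelium, had the largest difference (4.42 ± 0.37, edgeR adjusted p = 2.95e-06). It rested mainly on tumour 3, with 22.1, 7.12 and 113 CPM against 1.60, 2.69 and 3.79 CPM, and without that tumour it did not pass (2.70, edgeR adjusted p = 0.0633). With another random thinning it differed by 2.04.

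On the other side, Vim was at 129, 205 and 114 CPM in Prom1-only against 490, 1023 and 514 CPM in Msi2-only cells (-2.07 ± 0.09, edgeR adjusted p = 5.16e-09). Hmga2 was at 37.6, 113 and 81.7 CPM against 152, 452 and 198 CPM (-1.65 ± 0.14, edgeR adjusted p = 3.13e-06). In the whole undetected arm Vim was at 600, 1108 and 521 CPM and Hmga2 at 156, 391 and 185 CPM. The part of Msi2 in these differences, beside that of low Prom1, was not tested. Inhba, which encodes a subunit of activin, was lower in the Prom1-only cells of each tumour at 6.27, 32.8 and 3.49 CPM against 27.2, 110 and 8.33 CPM (-1.68 ± 0.23, edgeR adjusted p = 0.000343). Pthlh, the parathyroid hormone-like peptide, was at 4.62, 22.8 and 2.24 CPM against 22.4, 59.1 and 12.1 CPM (-1.71 ± 0.28, edgeR adjusted p = 0.00115). Of the lists, 13 of 15 defence genes were higher with Prom1 and 0 lower, 11 of 23 duct genes were higher and 0 lower, 7 of 16 mesenchymal genes were lower and 0 higher, and 2 of 23 stem and progenitor genes were higher and 4 lower. Among all tested genes 3.71% were higher and 3.45% lower. DESeq2 called 4 mesenchymal genes lower and 0 stem and progenitor genes higher and 2 lower. Cd44 was lower in Prom1-only cells (-0.45 ± 0.09, edgeR adjusted p = 0.00515) and Cd24a higher (0.35 ± 0.08, edgeR adjusted p = 0.0103), but neither passed with DESeq2 (adjusted p = 0.077 and 0.26) or without tumour 3 (edgeR adjusted p = 0.118 and 0.0994).

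**Figure D5:**
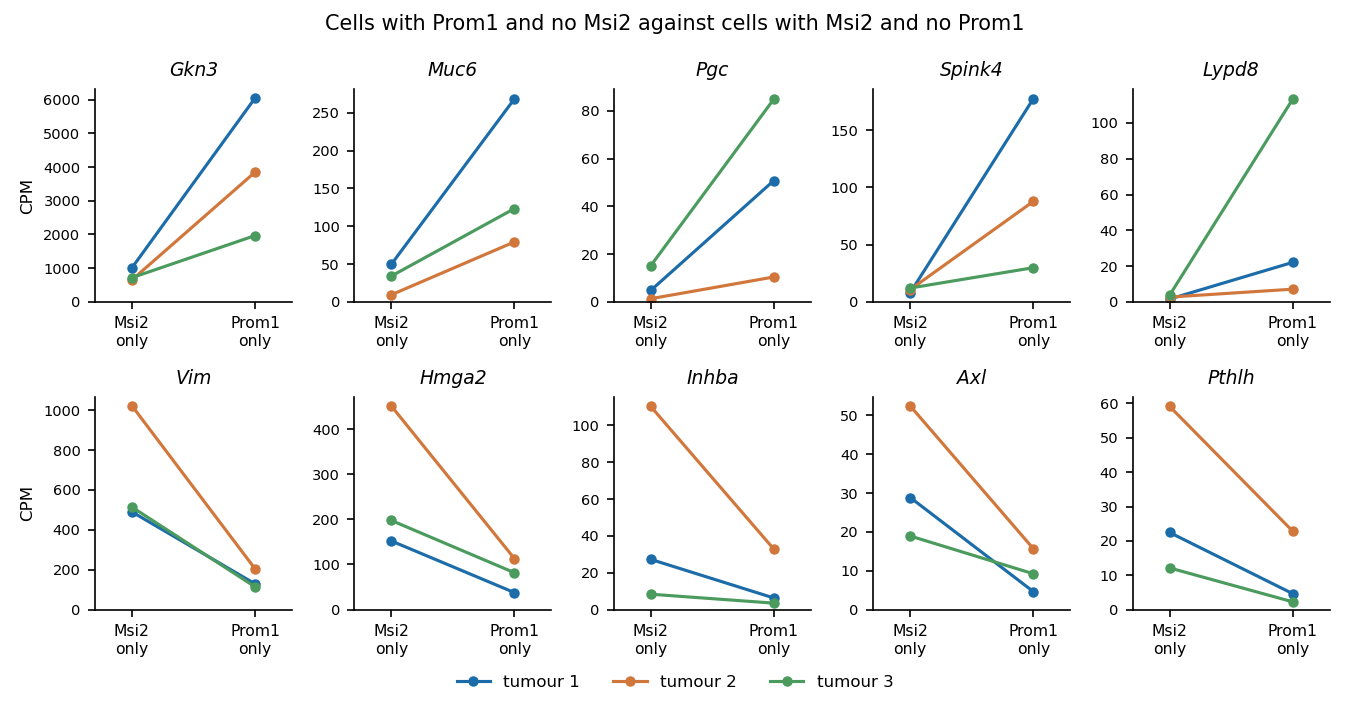
Level of 10 genes in CPM in cells with Prom1 and no Msi2 (Prom1 only) and cells with Msi2 and no Prom1 (Msi2 only), with a line joining both groups of a tumour. Gkn3, Muc6, Pgc, Spink4 and Lypd8 are higher and Vim, Hmga2, Inhba, Axl and Pthlh lower with Prom1 in each tumour, and Lypd8 is high in tumour 3 alone.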

How the data were processed

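The authors deposited 1 matrix of UMI counts, in whole numbers and not normalized, for the sorted cells of all 3 tumours; the barcode suffix gives the tumour, per the labels. Cell Ranger 2.1.1 and Seurat 3.0 are named, without their roles, in the submitters' processing notes, with the genome build not given in the sources used here. A deposited table of clusters, with log2 fold changes and p-values, was not used here. Total depth was 60801677, 67262634 and 53162622 UMIs in tumours 1, 2 and 3. Symbols were used as the gene list pairs them with identifiers, and no coordinates are given.

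Cells under 3000 UMIs were left out (205, all in tumour 3), and 749, 557 and 451 cells with Epcam and Krt18 fell to the limit on Dcn and Col3a1. Barcode sequences that occurred in both tumours of a pair numbered 50, 65 and 57, of which 6, 11 and 7 among the epithelial cells. No doublet caller was part of the rule; Scrublet, as provided by scanpy 1.11.5, marked 7, 27 and 12 of the epithelial cells, which were kept. Epithelial cells that carry genes of other lineages cannot be told apart from doublets here. Cells were thinned without replacement (seed 1), and CPM are counts per 1000000 thinned UMIs of an arm. Sums of counts per arm and tumour held 624000 to 5715000 UMIs and were fitted with edgeR 4.0.16 (TMM normalization with factors of 0.939 to 1.07, filterByExpr, quasi-likelihood test, Benjamini-Hochberg adjustment over all tested genes), without Prom1, the other genes that chose the cells and, in the last comparison, Msi2. The SE of a log2 fold change was taken as its size over the square root of edgeR's F. Both arms come from the same tumour, so the tumour was a block; deviations of the 2 arms of a tumour from their arms' means correlated at 0.726 to 0.842, 0.638 to 0.847 and 0.582 to 0.772 in the 3 comparisons. Alternatives included DESeq2 1.42.0, another seed (2) and thinning to 6000 UMIs. With the other seed and at 6000 UMIs, the arms were drawn anew from the Prom1 UMIs of that thinning.

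Genes named are the 12 highest and 12 lowest (6 and 6 in the other comparisons) among those passing, with the same sign in 3 of 3 tumours and a mean of at least 20 CPM, up to 4 members of each list by smallest p, and Msi2, Cd44, Cd24a, Sox9, Prom2, Cftr, Muc1, Mki67 and Top2a; some genes that the rule names are not reported here, and Krt8 and Krt19 by Prom1 number were chosen after their values were seen. The members and the 37 lists were chosen with earlier results of these data known. With simulated counts for the first comparison (11622 genes), 92% and 96% of genes lowered and raised by 1 on the log2 scale were called, 24% and 20% of those changed by 0.5, and 0.035% of unchanged genes. With the tumour as a block, p-values measure how consistent the difference between the arms was over these 3 tumours. The labels say nothing on separate animals.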

Additional observations from a re-analysis of the deposited data

How the results depend on the processing

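All 3 comparisons used the tumour as a block. With no replicate block, edgeR called 0 genes in each, while 685, 184 and 451 genes had an unadjusted p under 0.05 in the first comparison, in that of 2 or more against 1 Prom1 UMI and in that with Msi2, and DESeq2 without the block called 47, 2 and 18. With the pairing kept, DESeq2 called 721, 94 and 200 genes where edgeR called 1996, 478 and 714. Leaving out 1 tumour at a time gave 1138 to 2108, 393 to 442 and 291 to 364 genes. In the first comparison, allowing no Dcn or Col3a1 UMI gave 1082 genes and leaving out cells with a Vim UMI 1040, of which 957 were among the 1996. The other settings stayed within 1.5 times the count. With another random thinning, 1475 of the 1996 and 296 of the 478 genes were called again. In the UMIs set aside by thinning, 1991 of the 1996 kept their direction and 1607 were called. These UMIs did not choose the arms, but they come from the same cells in the same arms, so the 2 results are not independent. Their number per cell was not made equal. The mean share of cells with Prom1 was 71.4% unthinned and 62.5% at 6000 UMIs, and 46.4% to 50.9% without 1 tumour.

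Signs turned for some of the named genes. Without cells of other lineages, the first comparison gave 0.32 for Ctrb1, 0.28 for Prss2, 0.34 for Rnase1, 0.13 for Reg3a and 0.51 for 2210010C04Rik, that of 2 or more against 1 gave 0.40 for Try5 and 0.068 for Clps, and that with Msi2 gave 0.20 for Ctrb1. Mki67 was at 0.25 with another thinning and Top2a at 0.13 with no Dcn or Col3a1 UMI, and the cause was not tested. The exclusion of other lineages and of Vim cells was chosen after seeing the data. Ctrb1, Prss2 and Try5 were themselves among the enzymes that chose the cells to leave out. At 3000 UMIs a cell, a single transcript decided the arm of 611, 477 and 933 of the detected cells in tumours 1, 2 and 3.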

Other observations

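Other gene lists were tested in the first comparison as well, in which 8.07% of all tested genes were higher and 9.27% lower. Of 18 tested genes of the NRF2 and glutathione response, 6 were higher in Prom1-detected cells and 1 lower (median 0.21). Gsta3, a glutathione transferase, was at 271, 156 and 232 CPM in detected against 136, 54.1 and 103 CPM in undetected cells of tumours 1, 2 and 3, without overlap (1.24 ± 0.10, edgeR adjusted p = 1.04e-05). Gsta4 was at 1054, 1167 and 1214 CPM against 614, 562 and 884 CPM, also without overlap (0.79 ± 0.09, edgeR adjusted p = 9.81e-05). Gpx2, the glutathione peroxidase of gut epithelium, was at 629, 337 and 233 CPM against 324, 141 and 171 CPM (0.91 ± 0.11, edgeR adjusted p = 0.000244). Of 19 genes of lipid and cholesterol metabolism, 2 were higher and 1 lower, the lower being Plin2, a coat protein of lipid droplets (-0.91 ± 0.11, edgeR adjusted p = 0.000152).

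The counts of pathway genes stand beside the same 8.07% higher and 9.27% lower among all tested genes. Of 14 tested Wnt genes, 2 were higher (Wnt4 and the receptor Fzd5) and 1 lower (Wnt7b, which did not pass with DESeq2, adjusted p = 0.15, or without tumour 1, edgeR adjusted p = 0.156). Of 9 Notch genes 0 were higher and 3 lower: the target Nrarp (-1.32 ± 0.20), the ligand Jag1 (-0.98 ± 0.21) and the receptor Notch2 (-0.64 ± 0.11, edgeR adjusted p = 0.00084, 0.00733 and 0.00177). Jag1 did not pass without tumour 1 (-0.59, edgeR adjusted p = 0.0794). Of 6 Hedgehog genes, the ligand Shh was higher (1.13 ± 0.24, edgeR adjusted p = 0.00688) at no more than 12.2 CPM in any arm, and it did not pass with DESeq2 (adjusted p = 0.11) or without cells with a Vim UMI (edgeR adjusted p = 0.192). Of 17 p53 targets and cell cycle inhibitors 5 were lower and 0 higher in tumours whose epithelium carries floxed Trp53: Cdkn1c, Cdkn2b, Bbc3, Plk2 and Cdkn2a, of which Bbc3 lies outside the rule for named genes.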
